A study of Homo sapiens with 2 samples.

Results

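The zinc finger genes of chromosome 19 were taken as the protein-coding genes of that chromosome whose symbol is ZNF followed by a number in the GENCODE release 44 annotation lifted to GRCh37 (hg19). They numbered 240 of the 20176 protein-coding genes annotated, and 1240 other protein-coding genes shared the chromosome with them. A gene was given a region when the nearest edge of that region lay within 1 kb of the transcription start site (TSS) of any of its transcripts. By this rule 14 of the 240 genes had a region and 226 had none.

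The regions came from chromatin immunoprecipitation sequencing (ChIP-seq) of SMARCA4 (also called BRG1), the ATPase of the SWI/SNF nucleosome remodeling complex, tagged with a FLAG epitope at its own locus and pulled down with an anti-FLAG antibody. Parental TOV21G cells, an ovarian clear cell carcinoma line with mutated *ARID1A*, were set against 1 EZH2 inhibitor-resistant (EIR) clone of the same line, clone 3, picked after stepwise selection in the EZH2 inhibitor GSK126 at 5, 10, 15 and 20 µM. Both carried the tag and the *ARID1A* mutation, both were grown in RPMI medium with fetal bovine serum, and whether the EIR clone was in GSK126 at harvest is not given in the sources used here. There was 1 library of each, each from single colonies expanded after tagging, so the clone stands for itself and no spread between replicates could be measured.

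Most ZNF genes of chromosome 19 encode proteins with a KRAB domain at the amino terminus and an array of C2H2 zinc fingers that reads DNA. The KRAB domain recruits the corepressor TRIM28 (KAP1), which brings the histone methyltransferase SETDB1 and heterochromatin protein 1 to target sites, many of them in transposable elements. The family grew by tandem duplication, and its members lie in clusters along the chromosome.

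The first 6 stretches are shown because they hold the first 120 bases of intron 1 (reference transcript, GRCh37, gene strand 5′ to 3′, outside every annotated exon) of the genes with a KRAB signature whose region covered that stretch whole, and a further one is shown because it opens the region with the largest fold. Capitals mark GGAACCG, the longest run of letters that all of the intron starts shared, and the last stretch, from further inside intron 1 of *ZNF430*, has no capitals.
ZNF555 (chr19:2841574-2841693, + strand): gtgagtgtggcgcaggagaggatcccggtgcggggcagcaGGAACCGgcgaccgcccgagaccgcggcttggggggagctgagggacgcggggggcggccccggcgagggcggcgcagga
ZNF823 (chr19:11849512-11849631, - strand): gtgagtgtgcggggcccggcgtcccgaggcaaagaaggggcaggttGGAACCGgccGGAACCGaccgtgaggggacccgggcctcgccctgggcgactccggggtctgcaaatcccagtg
ZNF69 (chr19:11998802-11998921, + strand): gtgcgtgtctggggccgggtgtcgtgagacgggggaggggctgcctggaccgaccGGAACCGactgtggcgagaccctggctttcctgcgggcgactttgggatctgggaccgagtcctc
ZNF763 (chr19:12076027-12076146, + strand): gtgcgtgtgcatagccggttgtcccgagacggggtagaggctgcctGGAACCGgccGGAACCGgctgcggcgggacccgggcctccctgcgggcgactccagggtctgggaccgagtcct
ZNF443 (chr19:12551606-12551725, - strand): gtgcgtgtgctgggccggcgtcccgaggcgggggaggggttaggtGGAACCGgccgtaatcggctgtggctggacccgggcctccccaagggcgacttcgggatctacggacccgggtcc
ZNF101 (chr19:19779776-19779895, + strand): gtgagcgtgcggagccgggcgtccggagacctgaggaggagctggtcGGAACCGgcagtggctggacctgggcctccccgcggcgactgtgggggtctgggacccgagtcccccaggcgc
ZNF430 (chr19:21204350-21204469, + strand): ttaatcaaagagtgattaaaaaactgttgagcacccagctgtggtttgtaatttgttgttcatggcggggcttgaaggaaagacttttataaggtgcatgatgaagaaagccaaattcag

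Between pairs of the intron starts identity was 54.9% to 81.0% (median 66.7%, 15 pairs), and it was highest between *ZNF69* and *ZNF763*, both in the same cluster. The 5 pairs with *ZNF555* had 54.9% to 59.0%. The run GGAACCG was chosen after the sequences had been seen, so its count in these 6 genes is fixed by the choice. On the gene strand it occurred in the first 120 bases of intron 1 in 38 of 225 ZNF genes without a region (16.9%, Wilson 95% interval 12.6 to 22.3) and in 16 of 1126 other coding genes of chromosome 19 (1.42%, 0.877 to 2.30). Counting either strand left the ZNF count at 38 and gave 22 other genes (1.95%). A seventh intron start inside a region, that of *ZNF574*, which had no KRAB signature, was 53.2% to 57.0% identical to the printed ones and did not hold the run, and the longest run common to all 7 was GTGCG. The pairs with *ZNF555* were thus close to this level, and those among the other printed starts, at 66.2% to 81.0%, were above it. The stretch of *ZNF430* had a GC content of 38.3% and 1 CpG, against 69.2% to 78.3% and 11 to 16 CpG in the intron starts.

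Tags are the aligned reads counted in a region. The EIR values are printed as scaled by the authors to the parental library, where 1 EIR read was worth 0.733, since the parental library held 25.6 M tags and the EIR library 35.0 M. Both lists hold only regions that differed between the libraries, because the other library served as the control in each call. A gene without a region may thus carry SMARCA4 at like levels in both cells or carry none, and the lists cannot tell these apart. Tags over the genes without a region, expression of the ZNF genes and markers of the cell line were not analysed here.

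ZNF genes of chromosome 19 rarely had a differing region at their promoters. Of the 240 genes, 14 (5.83%, Wilson 95% interval 3.51 to 9.55) had a differing promoter region, against 24.6% of all coding genes (4958 of 20176) and 19.8% of the other coding genes of chromosome 19 (246 of 1240, 17.7 to 22.2). A parental-higher region, one with more tags in parental than in EIR cells, lay at 13 of them, against 23.2% of all coding genes and 18.1% of the others on the chromosome. An EIR-higher region lay at 1 of them, against 1.96% of all coding genes and 2.5% of the others on the chromosome. ZNF genes elsewhere did not share the low value: 64 of the 236 ZNF genes on other chromosomes had a region (27.1%, 21.8 to 33.1). The intervals cover counting error only and treat genes as independent draws, which duplicated neighbours are not, so no test of the difference between gene classes was made.

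**Figure D1:**
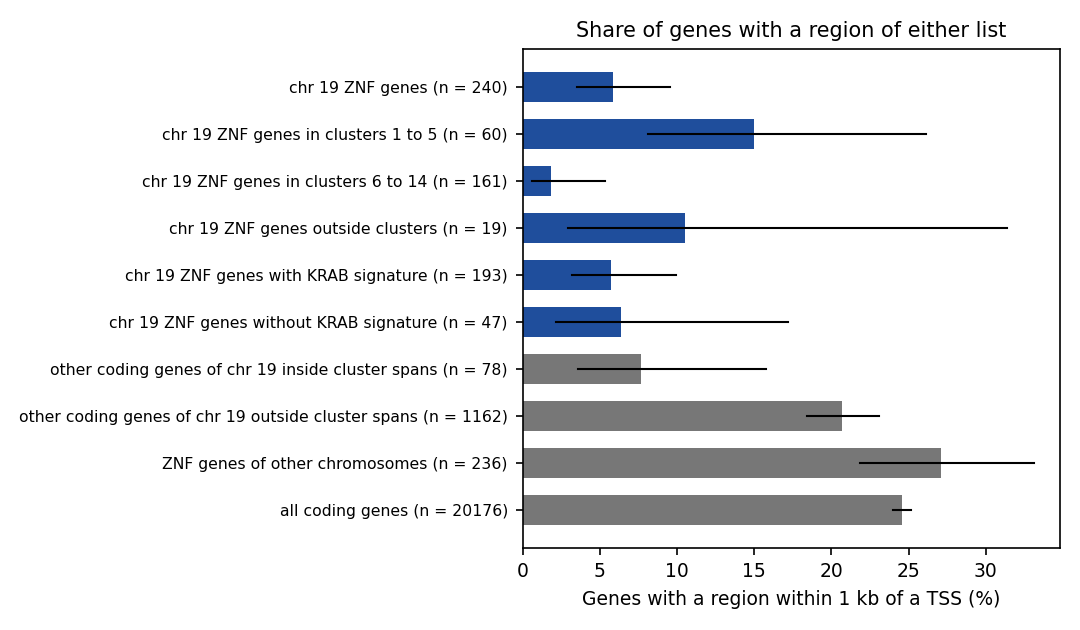
Share of genes (%, horizontal axis from 0) given a region under the 1 kb rule, for chromosome 19 ZNF genes and their subsets (blue bars) and for other gene classes (grey bars), with n genes in the labels and black lines for the Wilson 95% interval. The 240 ZNF genes stood at 5.83%, against 27.1% of ZNF genes on other chromosomes.

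The most tags were at *ZNF555*, a KRAB zinc finger gene of the first cluster near the short-arm end. Its region (chr19:2841419-2842633) ran from the upstream sequence over exon 1, which holds coding sequence, into intron 1, and counted 91 parental and 38.1 scaled EIR tags. The fold was 2.39, with a 95% counting interval of 1.68 to 3.42. Each of the 14 regions had been called as differing between these same libraries. Their fold intervals, all 14 of which exclude 1, are thus no separate evidence of a difference. The *ZNF555* region was also the widest of the 14, and 9 of the 14 were exactly 500 bp.

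*ZNF101*, in the fourth cluster, came next with 63 parental and 36.7 scaled EIR tags, and its region (chr19:19779566-19780198) likewise covered exon 1 and the start of intron 1. Its fold of 1.72 (1.17 to 2.54) was the smallest among the parental-higher regions at ZNF genes. Per kb of region it was the strongest in either library, with 99.7 parental and 58.1 scaled EIR tags per kb, against 75 and 31.4 at *ZNF555*.

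*ZNF574*, a gene outside the clusters whose protein has 18 C2H2 fingers by pattern and no KRAB signature, had 50 parental and 22 scaled EIR tags over its upstream sequence, exon 1 and intron 1 (chr19:42580136-42580778, fold 2.27, 1.42 to 3.70). *ZNF699*, in the second cluster, had 42 parental and 20.5 scaled EIR tags (chr19:9420089-9420589, fold 2.05, 1.24 to 3.43). These 4 genes were the ones with at least 40 tags at a parental-higher region, and each of their regions covered a TSS. The other 9 parental-higher regions had 18 to 37 parental tags, 8 of them under 30.

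*ZNF430* had the largest fold and few tags. Its region (chr19:21204350-21204988) counted 24 parental and 5.1 scaled EIR tags, a fold of 4.68 with an interval of 1.96 to 12.9. It lay 827 bp from the nearest TSS, inside intron 1, and its first 120 bases are the AT-rich stretch printed above.

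The next largest fold was at *ZNF524*, which encodes a zinc finger protein known to bind telomeric repeats. There 26 parental tags stood against 7.3 scaled EIR tags (chr19:56111591-56112091, fold 3.55, 1.65 to 8.24). The same region lay within 1 kb of a TSS of *FIZ1*, the gene of an FLT3-interacting zinc finger protein, so the tags cannot be given to one promoter.

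At *ZNF816* the region (chr19:53464684-53465316) counted 25 parental and 7.3 scaled EIR tags, a fold of 3.41 (1.58 to 7.96), and lay 762 bp from the nearest TSS within intron 1. It was also assigned to the read-through gene *ZNF816-ZNF321P*. At *ZNF415* the region (chr19:53635372-53635872) held 18 parental and 5.9 scaled EIR tags, the fewest parental tags of the 13 (fold 3.07, 1.27 to 8.16), and lay 256 bp from a TSS. Both genes are in the eleventh cluster, and both regions were in intron 1.

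*ZNF823*, *ZNF69* and *ZNF443* lay in the third cluster with parental-higher regions over exon 1 and the start of intron 1. *ZNF823* had 37 parental and 18.3 scaled EIR tags (chr19:11849153-11849653, fold 2.02, 1.18 to 3.50). *ZNF69* had 25 parental and 9.5 scaled EIR tags (chr19:11998686-11999186, fold 2.62, 1.29 to 5.58). *ZNF443* had 26 parental and 11 scaled EIR tags (chr19:12551331-12551831, fold 2.36, 1.21 to 4.80), at a window in which 89.1% of 75-base stretches occur once in the genome, the lowest of the 14 genes, and its region was shared with an overlapping coding gene that has no symbol (ENSG00000268870).

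*ZNF763*, in the same cluster as *ZNF69*, was the single ZNF gene of the chromosome with an EIR-higher region. It counted 5 parental and 16.1 scaled EIR tags (22 reads) at chr19:12075722-12076222, 3.23-fold higher in EIR cells with an interval of 1.19 to 10.9. The region covered the upstream sequence, exon 1 and the start of intron 1. The direction was thus opposite at *ZNF69* and *ZNF763*, whose intron starts were the most alike of those printed (81.0%), and within 1 kb of their TSSs 97.1% and 99.0% of 75-base stretches occur once in the genome.

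The remaining regions were at *ZNF85*, a KRAB repressor gene, and *ZNF296*, which has no KRAB signature. *ZNF85* had 27 parental and 11.7 scaled EIR tags in intron 1 (chr19:21106274-21106774, fold 2.30, 1.20 to 4.57). *ZNF296*, outside the clusters, had 29 parental and 12.5 scaled EIR tags over its upstream sequence and exon 1 (chr19:45579358-45579858, fold 2.33, 1.24 to 4.51). No region was near more than 1 member gene, and no member gene had more than 1 region.

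**Figure D2:**
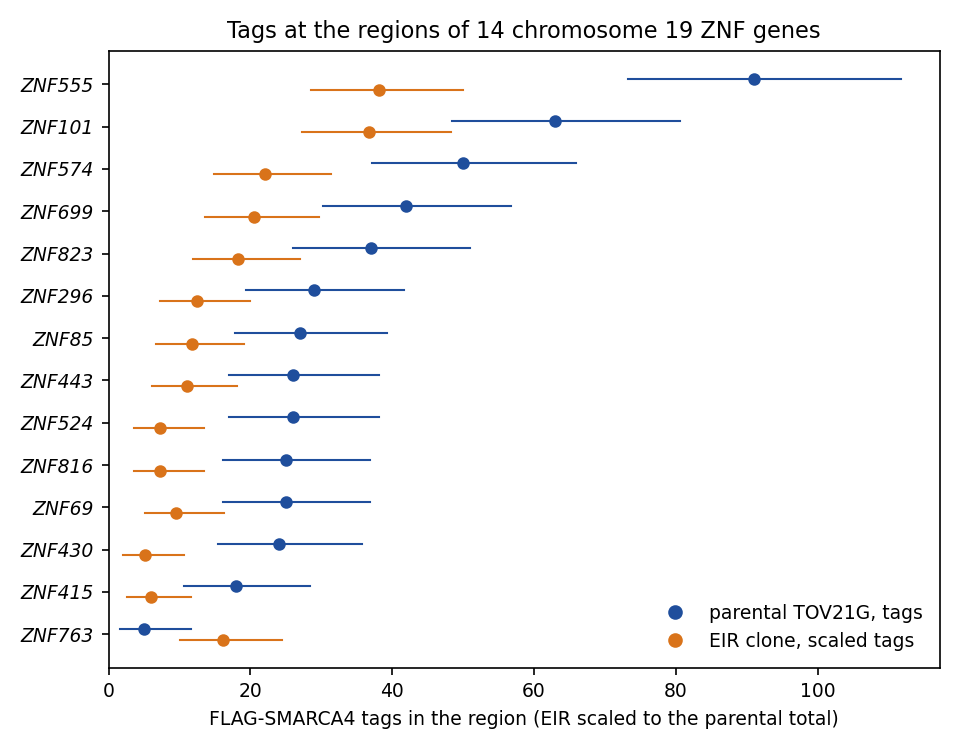
Tags (horizontal axis, from 0) in the region of each of the 14 ZNF genes in parental cells (blue points) and, scaled to the parental total, in the EIR clone (orange points), ordered by parental tags, with lines for the exact Poisson 95% counting interval. *ZNF555* was highest at 91 against 38.1, and only *ZNF763*, at 5 against 16.1, had more tags in the EIR clone.

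Where a ZNF gene had a parental-higher region, the region tended to hold few tags in total. The median over the 13 regions was 27 parental tags (18 to 91), against 45 over the 219 parental-higher regions at other coding genes of chromosome 19 and 48 over the 4668 at any coding gene. The ZNF regions were also narrower, with a median width of 500 bp against 694 bp and 752 bp. Tags per kb were not compared between these sets, and the part of width in the lower tag totals was not tested. Their median fold was 2.36 (95% interval of the median 2.05 to 3.41), against 2.77 (2.66 to 2.91) at the other genes of the chromosome and 2.54 at any coding gene. Since the lists keep only regions called as differing, weak folds are missing from all of these classes and the medians are given as a description. Over all 14 regions together, both directions included, 488 parental tags stood against 222 scaled EIR tags, a ratio of 2.20 (1.90 to 2.54). The same ratio was 2.39 (2.31 to 2.46) over the regions at other coding genes of the chromosome and 2.30 (2.28 to 2.31) at any coding gene. Both values lie within the ZNF interval.

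By position, 7 of the 14 regions covered a TSS, and those of *ZNF430* and *ZNF816* were the furthest from one. Beyond the promoters, regions were rare in the gene bodies too. Of the 240 ZNF genes 3 (1.25%) had a region in the body, all parental-higher, against 101 of 1240 other coding genes of the chromosome (8.15%), the bodies spanning 7.65 Mb and 29.5 Mb in all. One was a further region of *ZNF823*, 1012 bp from its nearest TSS and so just outside the 1 kb window, with 26 parental and 11 scaled EIR tags. Another, 2909 bp from the nearest TSS of *ZNF575*, had 20 and 6.6, and the last was the *ZNF415* region, which lies inside *ZNF347*. The longest coding exon, which in this family usually carries the finger array, held a region in 0 of the 240 genes (a count that allows up to 1.25%) and in 6 of the 1240 others.

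The nearest region of either list lay at a median of 221 kb from a TSS of a ZNF gene (interquartile range 66.1 to 438 kb), against 25.7 kb for the other coding genes of the chromosome. It was more than 100 kb away for 166 of the 240 ZNF genes and for 251 of the 1240 others. Only *ZNF575* and *ZNF865* had their nearest region 1 to 5 kb away, against 76 of the other genes.

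The ZNF genes were grouped into clusters by chaining neighbours whose TSSs lay up to 250 kb apart, with at least 3 genes to a cluster. This gave 14 clusters, numbered along the chromosome from the short-arm end, with 221 genes, and left 19 genes outside. In the clusters 12 of 221 genes had a region (5.43%, 3.13 to 9.25), and outside them 2 of 19 (10.5%, 2.94 to 31.4). No cluster had a region at more than 4 of its genes, and 7 clusters, with 116 genes, had none.

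Genes with a region were most numerous in cluster 3 (*ZNF653* to *ZNF791*, TSSs from position 11616654 to 12721734), where *ZNF823*, *ZNF69*, *ZNF763* and *ZNF443* made up 4 of 25. Cluster 1 had 1 of 5, cluster 2 had 1 of 11, cluster 4 had 1 of 8, and cluster 5, with *ZNF85* and *ZNF430*, had 2 of 11. Further along, cluster 11 had 2 of 38 and cluster 12 had 1 of 7. The largest cluster, number 14 near the long-arm end (*ZNF264* to *ZNF446*, position 57702868 to 58987719), had 0 of 41, which allows a share of up to 7.32%, and clusters 9 and 10 had 0 of 22 and 0 of 23 (up to 13.6% and 13%).

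In clusters 1 to 5, those nearest the short-arm end, 9 of 60 genes had a region (15.0%, 8.10 to 26.1). In clusters 6 to 14 the count was 3 of 161 (1.86%, 0.636 to 5.33). The split was made after the counts had been seen and is a description. The median promoter GC content was 58.3% in clusters 1 to 5 and 60% in clusters 6 to 14, and its part in the split was not tested.

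**Figure D3:**
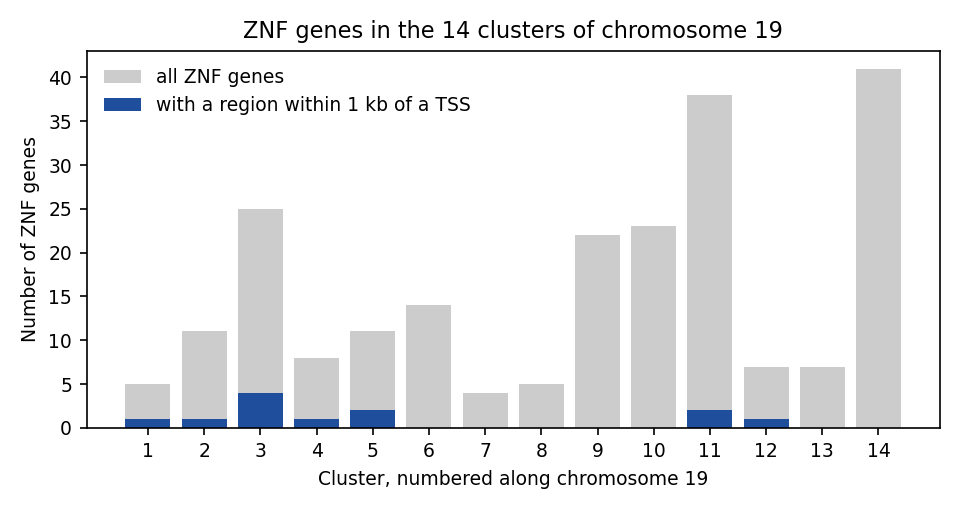
Number of ZNF genes (vertical axis) in each of the 14 clusters numbered along chromosome 19 (horizontal axis), all genes in grey and those given a region in blue. Cluster 3 had 4 genes with a region of 25, and cluster 14, the largest, had 0 of 41.

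Other coding genes with their TSS inside the cluster spans also had few regions, with 6 of 78 (7.69%, 3.57 to 15.8) against 240 of 1162 outside the spans (20.7%, 18.4 to 23.1). This set holds every gene outside the symbol rule, so longer ZNF symbols and other zinc finger genes such as *ZSCAN1*, which had a region, are in it. It also counts *ENSG00000268870*, *ZNF816-ZNF321P* and *FIZ1*, which share the regions of *ZNF443*, *ZNF816* and *ZNF524*. The share is thus not independent of the ZNF count. The other genes inside the spans also differed from those outside in median promoter GC content (59.3% against 64.3%), in CpG per promoter (16 against 22) and in TSSs per gene (2 against 6), whose part in the lower share was not tested. The spans together cover 11.2 Mb and held 21 parental-higher regions, 1.87 per Mb with an exact Poisson 95% interval of 1.16 to 2.85. The remaining 44.6 Mb of the chromosome held 320, or 7.18 per Mb (6.42 to 8.01). EIR-higher regions numbered 3 inside the spans (0.267 per Mb) and 84 outside (1.89 per Mb). Beyond 1 kb of any TSS the densities, both lists together, were 0.622 per Mb inside and 3.32 per Mb outside, so the cluster spans were poorer in regions away from promoters as well.

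Promoter base composition moved with the share in the other genes of the chromosome, and much less in the ZNF genes. From 250 bases upstream to 50 downstream of the reference TSS, the median GC content was 59.7% in the ZNF genes and 64.0% in the other coding genes of the chromosome. Among the others, genes with a region had a median of 72.0% and genes without one 62.3%, whereas in ZNF genes the values were 61.3% with a region and 59.5% without. The median number of CpG in ZNF promoters was lower with a region (17.5) than without (20). Under 50% GC the ZNF share was 0 of 8 (upper bound 32.4%) and that of the others 3 of 93 (3.23%). In promoters of 50% to 55% GC the ZNF share was the higher one, 6.90% (2 of 29) against 6.48% (7 of 108). In promoters of 55% to 60% GC the ZNF share was 4.71% (4 of 85) and the share of the others 6.06% (12 of 198). In promoters of 60% to 65% GC the shares were 6.25% (4 of 64) and 10.4% (27 of 259). In promoters of 65% to 70% GC the shares were 7.69% (3 of 39, 2.65 to 20.3) and 17.7% (47 of 266, 13.6 to 22.7). In promoters of 70% GC or more they were 6.67% (1 of 15, 1.19 to 29.8) and 47.5% (150 of 316, 42.0 to 53.0). From 50% GC up the ZNF share was between 4.71% and 7.69% in every class. The gap was widest at GC-rich promoters, of which the ZNF genes had only 15, and in every class under 70% GC the intervals of ZNF and other genes overlapped.

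**Figure D4:**
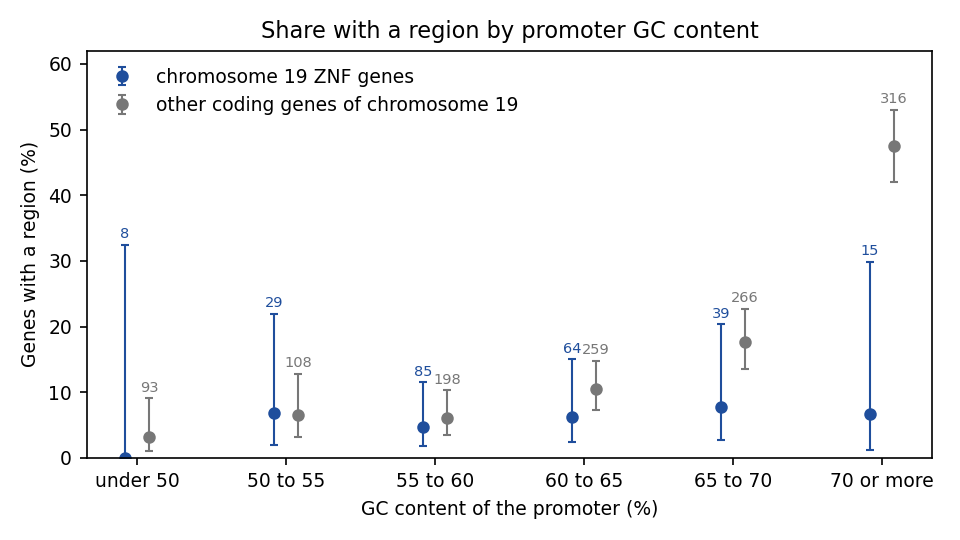
Share of genes with a region (%, vertical axis) by GC content of the promoter (%, horizontal axis) for chromosome 19 ZNF genes (blue) and other coding genes of the chromosome (grey), with Wilson 95% intervals and the number of genes above each bar. The shares were 4.71% and 6.06% at 55 to 60% GC and 6.67% and 47.5% at 70% or more.

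Weighting the other genes to the GC classes of the ZNF genes took their share from 19.8% to 11.7%, above the interval of the ZNF share. No interval was computed for this weighted share. It includes the class of 70% GC or more, with only 15 ZNF genes and a share of 47.5% in the others. A weighting over the classes under 70% GC was not made, so whether the difference holds there was not tested. Weighting by the number of CpG in the promoter gave 16% (with 5 to 10 CpG the ZNF share was the higher one, 14.3% against 5.98%, and with 10 to 15 CpG too, 7.5% against 6.67%), by the number of distinct TSSs of the gene 19.5%, and by whether all 75-base stretches within 1 kb of the TSS occur once in the genome 19.7%. For the ZNF genes of other chromosomes the GC weighting gave 20.0%. These 4 weightings were chosen after the shares had been seen. Stretches of read length that occur once made up on average 98.9% of the windows of ZNF genes and 97.7% of those of the other genes, and among genes whose window held no repeated stretch the shares were 5.77% (9 of 156) and 24.3% (200 of 822).

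A KRAB signature, a short letter pattern in the first 400 residues of the translated reference transcript, was found in 193 of the 240 genes. Of these 11 had a region (5.70%, 3.21 to 9.92), against 3 of the 47 genes without it (6.38%, 2.19 to 17.2). The pattern is a rough one, kept as the last of 3 versions tried after looking at which member proteins matched. The number of C2H2 fingers had a median of 14 in genes with a region and 12 in those without.

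Promoters, in the same window around the reference TSS as for GC content, were searched on both strands for short motifs, none of which contains another. The shares describe these windows and not the differing regions, 7 of which covered no TSS. The GC box GGGCGG was in 14 of the 14 promoters of ZNF genes with a region, in 66.8% of the 226 without and in 65.9% of the other coding genes of the chromosome (61.0% of all coding genes). The ETS motif CCGGAAG was in 4 of 14 (28.6%) and in 44.7% of ZNF promoters without a region, against 15.6% of the other genes and 14% of all. CCAAT, the NFY motif, was in 10 of 14 (71.4%), in 50.9% without a region, in 37.4% of the others and in 36.0% of all. NRF1 letters, CGCATGCG, were in 2 of 14, in 3.10% of those without a region, in 4.11% of the others and in 2.82% of all. YY1 (GCCATNTT), ZBTB33 (CTCGCGAG) and AP-1 (TGANTCA) letters were in 0 of 14, which allows up to 21.4%, and in 13.7%, 0.885% and 5.75% of ZNF promoters without a region. In the same order the shares were 10.2%, 0.968% and 4.52% in the other genes and 8.09%, 1.45% and 5.42% in all coding genes, each below that limit. The ETS and CCAAT letters were thus more frequent in ZNF promoters without a region than in the other genes of the chromosome, and the shares over the 14 rest on few promoters.

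Zinc finger genes of the chromosome with other symbols (ZFP, ZIK, ZIM, PEG3 and ZSCAN) had a region at 1 of 15 (6.67%, 1.19 to 29.8), an interval that also holds the shares of the other coding genes of the chromosome and of all coding genes. That gene, *ZSCAN1*, had 32 parental and 11 scaled EIR tags (fold 2.91, 1.53 to 5.78). Corepressor and silencing factors were listed separately, with the maintenance DNA methylation genes *DNMT1* and *UHRF1* among them. Of these, 6 of 16 had a region (37.5%, 18.5 to 61.4). That interval also holds the 24.6% of all coding genes. These listed genes had a median of 15.5 TSSs per gene against 5 in all coding genes, and any TSS could give a gene a region. Their median promoter GC content was 66% against 63.7%. The part of either in the share was not tested.

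*TRIM28*, the corepressor itself and also a gene of chromosome 19, had 33 parental and 15.4 scaled EIR tags (fold 2.14, 1.20 to 3.90). *CBX5*, encoding heterochromatin protein 1 alpha, had 35 and 8.8 (fold 3.98, 2.02 to 8.42), and *CHD3*, a NuRD remodeling ATPase, had 49 and 4.4 (fold 11.1, 4.77 to 31.8). *PPHLN1*, of the HUSH silencing complex, had 94 and 23.5 (fold 4.01, 2.66 to 6.19), and *UHRF1*, which guides maintenance DNA methylation, had 123 and 67.4 (fold 1.82, 1.38 to 2.42). *DNMT1*, the maintenance DNA methyltransferase, was the one with an EIR-higher region, at 5 parental and 18.3 scaled EIR tags (3.67-fold higher in EIR cells, 1.38 to 12.3). *SETDB1*, *ATF7IP*, *CBX1*, *CBX3*, *CHD4*, *HDAC1*, *HDAC2*, *TASOR*, *MPHOSPH8* and *MORC2* had no region within 1 kb of a TSS.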

How the data were processed

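FLAG-SMARCA4 ChIP-seq was analysed in 1 parental and 1 EIR library of 75-base single-end reads. The authors aligned reads to hg19 with bowtie 0.12.9 and called regions with HOMER in histone style, each library serving as control for the other, at an FDR under 5%. The deposited lists give parental tags as counts per region, the EIR signal scaled by the authors to the parental total, their ratio as a fold and the HOMER p-value. EIR reads were recovered by dividing by 0.733: 98.8% of 173 distinct values came out whole within 0.05 scaled tags.

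Regions were joined to TSSs of the GENCODE release 44 annotation lifted to GRCh37, in Python 3.11.15 with pandas 2.3.3 and scipy 1.17.1. Fold intervals (95%) are exact conditional Poisson intervals, and shares carry Wilson intervals. Where a count is 0, the share it allows ("up to") is 3 divided by the number of genes or promoters. Such a limit is somewhat lower than the Wilson one, which is given only where "upper bound" is written. With 1 library per condition no test between conditions was made. Intron starts were aligned with Biopython 1.88. Calculations were first checked on simulated data. The genes named were those with an EIR-higher region, the 5 with the most parental tags, the 5 with the largest and the 5 with the smallest folds, and the top region of each cluster of at least 5 genes, which took in all 14. The members, lists and motifs were chosen with earlier results of these data known. Alternatives were windows of 500 bp and 5 kb, other TSS sets, a fold of at least 2, a HOMER p-value of at most 1e-06, an EIR library scaled 1.5 times higher, wider symbols and other cluster gaps.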

Additional observations from a re-analysis of the deposited data

How the results depend on the processing

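The ZNF share lay below that of the other coding genes of chromosome 19 in 8 of 8 settings in which both could be compared. Over 49 alternatives, 34 values stayed within their interval or within 1.5 times the count, 15 moved further and 0 reversed. Some of the 34 could not move. Taking each gene with its nearest region had to repeat the main values, since no member gene had more than 1 region. As the lists hold only called regions, a narrower window or a stricter fold, p-value or TSS set could only drop genes. Scaling the EIR library up could not add an EIR-higher region absent from the lists. The count of 0 reversed was thus in part fixed by the lists. The share of the other genes was 17.6% with a window of 500 bp, 26.0% with 5 kb, 16% with the TSS of the reference transcript only, and, weighted to the ZNF genes, 11.7% by GC and 16% by CpG, which were 2 of 4 weightings chosen after seeing the data. At a HOMER p-value of at most 1e-06 the shares were 2.08% of ZNF genes and 12.7% of others, with 5 parental-higher and 0 EIR-higher ZNF genes and a ratio of summed tags of 2.70. *ZNF763*, the one EIR-higher gene, was thus lost there. With the EIR library scaled 1.5 times higher, and regions kept at a Poisson p of at most 0.0001, the shares were 1.67% and 9.84%, with 3 parental-higher ZNF genes, a ratio of summed tags of 1.46 and a median fold of 1.98. Adding the 9 genes whose symbol has more after the number gave 249 genes, and 1 of the 9 had a region. That gene was the read-through *ZNF816-ZNF321P*, with the region already counted at *ZNF816*, so the ratio of summed tags stayed at 2.20. No paired analysis was possible because each condition has 1 library. Depth limits the single genes, as 8 of the 13 parental-higher regions rest on fewer than 30 parental tags. Input or copy number data were not analysed here, so local DNA content in either line was not tested.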
